A study of Mus musculus with 18 samples.

Results

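The ribosomal protein genes described here are those whose symbol in the platform annotation begins with Rpl, Rps, Mrpl or Mrps followed by a number or by p. Ribosomal S6 kinases, pseudogenes and genes named as like another were left out (6, 3 and 6 genes). The rule took 138 of the 17097 genes measured, each read from the brightest of its probe sets on average. Of these, 64 encode proteins of the cytosolic ribosome and 73 encode proteins of the mitochondrial ribosome. The remaining member, Rps19bp1, meets the rule by its letters but encodes a protein that binds Rps19, and it was kept in neither set.

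Liver RNA was profiled in 18 samples from female mice aged 6 to 8 weeks, in a study of cholesterol leaving the body by a route other than bile. Livers came from mice with a liver NPC1L1 transgene (transgenic, n = 5) and from wild-type mice (n = 5), both on C57BL/6, and the design text calls this model chronic. In the model called acute, the ACAT2 ASO group (n = 4) was C57BL/6N mice given an antisense oligonucleotide (ASO) that targets ACAT2. The control ASO group (n = 4) carried an oligonucleotide too, one without a target. NPC1L1 takes up sterols at the cell surface, and ACAT2 makes cholesteryl esters in hepatocytes. The labels do not give the promoter or species of the transgene, the dose or duration of the ASO, or whether the numbered samples were separate mice, so the p-values may measure technical spread. Values are log2 signals of each probe set. A change is the difference of 2 group means, given with its standard error (SE), and "called" means that limma gave an adjusted p under 0.05 (Benjamini-Hochberg, over all 17097 genes).

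A ribosome reads messenger RNA on its small subunit and joins amino acids on its large subunit. The cytosolic ribosome makes nearly all proteins of the cell, and the mRNAs of its own proteins commonly begin with a 5′ terminal oligopyrimidine (TOP) tract, a C followed by pyrimidines, through which their translation responds to mTOR signalling. The mitochondrial ribosome makes the few membrane subunits of oxidative phosphorylation that mitochondrial DNA encodes, yet its proteins are all encoded in the nucleus, and hepatocytes are rich in both kinds of ribosome.

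The start of the transcript is where the sets are known to differ, so the first bases of members that the results turn on are shown. Each line holds 30 bases of the gene's strand in GRCm38.p6, from RefSeq's promoter table, with 5 bases before the annotated start and 25 from it. Capitals mark a TOP tract that begins at the annotated start.
Rps6, chr4:86857343-86857372, minus strand: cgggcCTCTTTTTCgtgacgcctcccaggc
Rps18, chr17:33955641-33955670, minus strand: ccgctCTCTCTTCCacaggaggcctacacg
Rplp2, chr7:141447646-141447675, plus strand: tcttcCTTTCgccgccggacgccgccgagg
Rpl9, chr5:65391407-65391436, minus strand: ctgacggattacaagaacgtgatgacgaaa
Rps13, chr7:116334166-116334195, minus strand: gtcggtgagtggcgtcacttcctgtgcggc
Mrps15, chr4:126046923-126046952, plus strand: gatccattcgctcagccctcggcagctctt
Mrps10, chr17:47369192-47369221, plus strand: cacggtagagagggccatggaaaccgtgag
Mrpl17, chr7:105811063-105811092, minus strand: gcgtcctctgagacgtgcctccgcccctct
The first 3 lines carry a tract of 9, 9 and 5 bases. No tract begins at the annotated start of the other lines, which says only that the annotated base is not the first C of one. In the Mrpl17 line a C and 4 pyrimidines begin 1 base before the annotated start.

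The median signal over all probe sets was 4.61 to 4.65 per array of the transgenic model and 4.38 to 4.40 per array of the ASO model, so levels are compared only within a model. All 9 hepatocyte markers measured, albumin among them, lay above 4.74, called the low level here, with 40% of genes beneath it. Npc1l1 lay below that level in every group, at 3.61 to 3.75 on transgenic arrays and 3.64 to 4.16 on wild-type arrays. Its change was -0.15 ± 0.090 (SE; limma, adjusted p = 0.604), so this probe set did not show the transgene, and the mRNA of ACAT2 was not analysed here. The root mean square distance of an array from its group mean over all genes was 0.248 for wild-type array 2, 0.192 for ACAT2 ASO array 1 and 0.232 for control ASO array 4, against 0.115 to 0.167 on the other arrays. These 3 arrays stood apart, and results that rest on them are given with and without them.

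In transgenic livers most transcripts of the cytosolic ribosome had slightly lower values than in wild-type livers, and most transcripts of the mitochondrial ribosome slightly higher values, by a few percent each. The change of 56 of the 64 cytosolic members (87.5%) lay below 0, with a median of -0.049 on the log2 scale, or -3.33%. The change of 57 of the 73 mitochondrial members (78.1%) lay above 0, with a median of 0.063, or 4.49%. Over all genes 52.6% of changes lay above 0 and the median was 0.0058. No single member was called (0 of 64 cytosolic and 0 of 73 mitochondrial), where 0.228% of all genes were called. At an unadjusted p under 0.05 the cytosolic set had 0 members higher and 4 lower, against 6.36% and 4.52% of all genes. The mitochondrial set had 15 higher (20.5%) and 0 lower. Of other genes of like signal to the mitochondrial set, described below, 9.22% were higher and 3.26% lower.

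**Figure D1:**
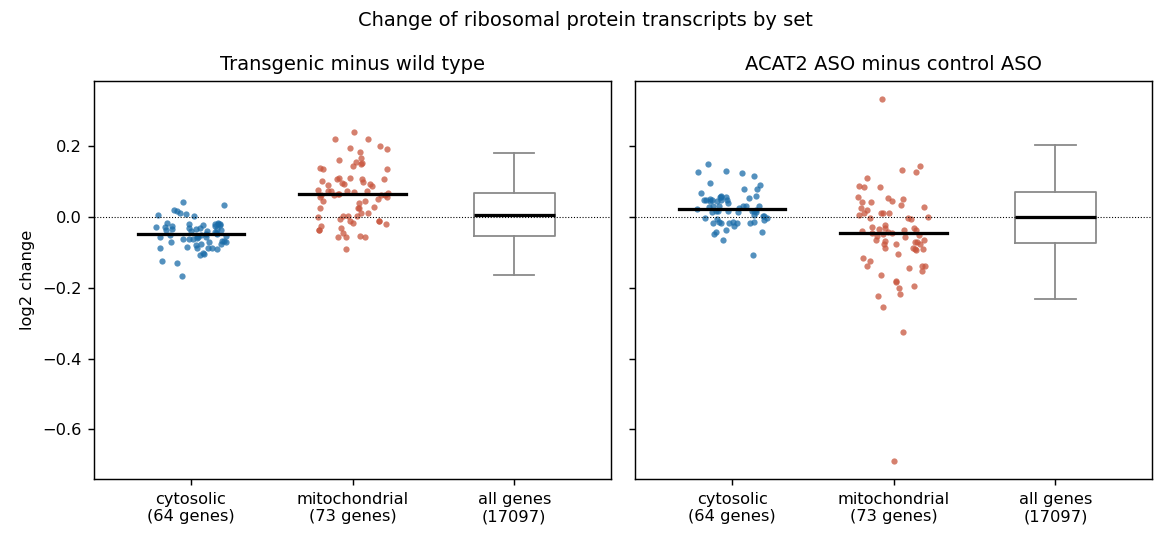
Each point is the log2 change of a member gene, transgenic minus wild type on the left and ACAT2 ASO minus control ASO on the right. Bars mark set medians, and the box gives the quartiles of all 17097 genes with whiskers that leave out 5% of genes at each end. In the transgenic model the cytosolic points lie mostly below 0 (median -0.049) and the mitochondrial points mostly above 0 (median 0.063). In the ASO model the medians are 0.023 and -0.047, and a single point, Mrps15, lies at -0.69.

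Both subunits of each ribosome shared the direction of their set in this model. Of the large-subunit genes, 35 of 41 cytosolic changes lay below 0 (median -0.042) and 37 of 46 mitochondrial changes lay above 0 (median 0.062). Of the small-subunit genes, 21 of 23 cytosolic changes lay below 0 (median -0.057) and 20 of 27 mitochondrial changes lay above 0 (median 0.072). Cytosolic changes spanned a narrow range of -0.17 to 0.043, and mitochondrial changes a wider range of -0.091 to 0.24. The 8 cytosolic exceptions were Rpl11, Rpl19, Rpl35, Rpl35a, Rpl41, Rplp2, Rps10 and Rps15a.

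The cytosolic member with the smallest p in this comparison was Rpl9, a large-subunit protein. Rpl9 measured 12.31, 12.28, 12.30, 12.19 and 12.31 in transgenic livers, against 12.35, 12.45, 12.49, 12.40 and 12.33 in wild-type livers. Every transgenic array lay below every wild-type array, and the change was -0.12 ± 0.039 (SE; limma, adjusted p = 0.234). Groups stood apart in this direction for 4 cytosolic members, Rpl7a, Rpl9, Rps14 and Rps6, or 6.25%, where 0.801% of all genes did so. Rps13, a small-subunit protein related to bacterial S15, measured 11.08, 10.99, 10.996, 11.10 and 11.19 in transgenic livers, against 11.26, 11.30, 11.21, 11.11 and 11.12 in wild-type livers. Transgenic array 5 overlapped the wild-type range, and the change of Rps13 was -0.13 ± 0.051 (SE; limma, adjusted p = 0.346). Rps2, a small-subunit protein methylated by the arginine methyltransferase Prmt3, measured 12.46, 12.41, 12.30, 12.36 and 12.43 in transgenic livers, against 12.60, 12.55, 12.50, 12.50 and 12.35 in wild-type livers. Of the wild-type arrays only array 5 lay inside the transgenic range, and the change of Rps2 was -0.11. The next members by p were Rpl12, which sits at the base of the ribosomal stalk, Rps12 and Rps24, with changes of -0.17, -0.11 and -0.10.

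Members picked for their role, after their values had been seen, differed little between these groups. Rps6, the small-subunit protein that S6 kinases phosphorylate, measured 12.60, 12.62, 12.58, 12.62 and 12.63 in transgenic livers, against 12.67, 12.64, 12.69, 12.66 and 12.64 in wild-type livers. The groups did not overlap, although the change of Rps6 was only -0.051 ± 0.040 (SE; limma, adjusted p = 0.71). Rplp0, which anchors the stalk that recruits elongation factors, measured 11.99, 11.88, 11.96, 12.001 and 12.07 in transgenic livers, against 12.001, 12.07, 11.996, 11.97 and 12.01 in wild-type livers. Its partner on the stalk, Rplp1, measured 12.30, 12.31, 12.35, 12.32 and 12.41 in transgenic livers, against 12.36, 12.49, 12.43, 12.38 and 12.40 in wild-type livers. Ranges of both stalk proteins overlapped, with changes of -0.029 and -0.071. Rps4x, a small-subunit protein encoded on the X chromosome, measured 12.11, 12.16, 12.16, 12.14 and 12.23 in transgenic livers, against 12.24, 12.24, 12.27, 12.21 and 12.13 in wild-type livers. Its change was -0.057 and its groups overlapped. Rpl13a, which in human myeloid cells also silences inflammatory mRNAs, measured 11.71, 11.76, 11.84, 11.77 and 11.83 in transgenic livers, against 11.70, 11.84, 11.88, 11.81 and 11.83 in wild-type livers, a change of -0.031. Rpl41, the smallest ribosomal protein, measured 12.30, 12.27, 12.27, 12.34 and 12.33 in transgenic livers, against 12.22, 12.31, 12.30, 12.25 and 12.23 in wild-type livers. It had the highest change of the cytosolic set, 0.043, its groups overlapped, and the sign turned when its probe sets were averaged.

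Among mitochondrial members the smallest p belonged to Mrps10, a small-subunit protein related to bacterial S10. Mrps10 measured 8.78, 8.70, 8.87, 8.70 and 8.68 in transgenic livers, against 8.56, 8.51, 8.56, 8.55 and 8.60 in wild-type livers. The groups did not overlap, and the change was 0.19 ± 0.045 (SE; limma, adjusted p = 0.089), or 1.14-fold. Mrps11, the mitochondrial relative of bacterial S11, measured 7.35, 7.26, 7.22, 7.33 and 7.14 in transgenic livers, against 6.92, 6.88, 7.12, 7.09 and 7.09 in wild-type livers. These groups stood apart as well, by 1.18-fold (0.24 ± 0.059, SE; limma, adjusted p = 0.109). Mrpl57, a large-subunit protein found in mitochondrial ribosomes only, measured 9.60, 9.63, 9.62, 9.54 and 9.45 in transgenic livers, against 9.29, 9.25, 9.32, 9.32 and 9.56 in wild-type livers. Wild-type array 5 lay inside the transgenic range of Mrpl57, whose change was 0.22 ± 0.058 (SE; limma, adjusted p = 0.127). Without wild-type array 5 Mrpl57 and Mrps34, another protein of mitochondrial ribosomes only, were called (limma, adjusted p = 0.023 and 0.0401), and the count of called mitochondrial members was 2.

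Mrps12, the counterpart of the bacterial decoding-site protein S12, measured 9.13, 9.001, 8.97, 9.02 and 9.004 in transgenic livers, against 8.93, 8.78, 8.83, 8.92 and 8.90 in wild-type livers. Every transgenic array lay above every wild-type array of Mrps12, with a change of 0.15 ± 0.046 (SE; limma, adjusted p = 0.198). Groups stood apart in this direction for 5 mitochondrial members, Mrpl27, Mrpl33, Mrps10, Mrps11 and Mrps12, or 6.85%, where 1.42% of all genes did so. Of the other genes of like signal to the mitochondrial set 2.83% did so. Mrpl27, a large-subunit protein, measured 10.29, 10.41, 10.34, 10.34 and 10.34 in transgenic livers, against 10.19, 10.17, 10.16, 10.13 and 10.06 in wild-type livers, a change of 0.20. Mrpl12, the stalk protein of the large subunit, measured 10.13, 10.21, 10.17, 10.13 and 10.03 in transgenic livers, against 10.06, 9.86, 10.19, 10.12 and 10.16 in wild-type livers. Mrpl10, which anchors Mrpl12, measured 8.14, 8.07, 8.22, 8.10 and 7.99 in transgenic livers, against 8.08, 7.88, 7.98, 8.03 and 8.05 in wild-type livers. The arrays of both stalk members overlapped, with changes of 0.056 and 0.10. Mrps18b, a paralogue among the mitochondrial S18 proteins, measured 8.47, 8.57, 8.39, 8.42 and 8.08 in transgenic livers, against 8.36, 8.12, 8.22, 8.14 and 8.35 in wild-type livers. Transgenic array 5 was its lowest value, and the change of 0.15 did not pass the test (limma, adjusted p = 0.558).

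Averaged over its members, neither set separated the groups of the transgenic model array by array. The cytosolic mean was 11.58 ± 0.040 in transgenic livers and 11.63 ± 0.043 in wild-type livers (SD, n = 5 each), with ranges of 11.54 to 11.63 and 11.59 to 11.68. The mitochondrial mean was 8.56 ± 0.037 in transgenic livers and 8.49 ± 0.062 in wild-type livers (SD, n = 5 each), with ranges of 8.50 to 8.58 and 8.39 to 8.55. Wild-type array 2 had both the highest cytosolic mean and the lowest mitochondrial mean of the model. Without it the medians of change were -0.035 for the cytosolic set and 0.043 for the mitochondrial set. The distance between the cytosolic and the mitochondrial median was -0.11 with all arrays and -0.079 without wild-type array 2.

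**Figure D2:**
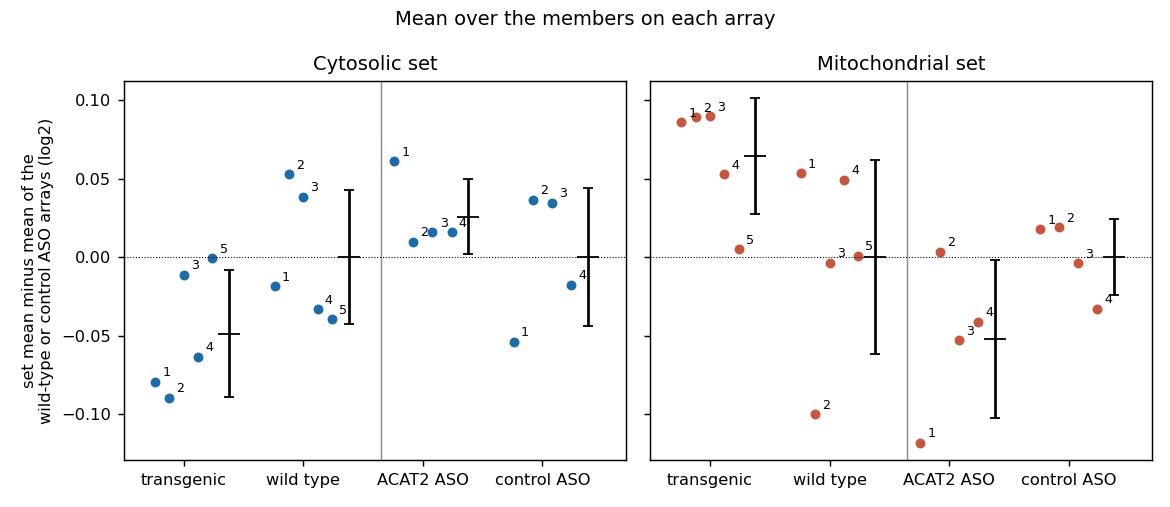
Each numbered point is the mean log2 signal of a set on that array, minus the mean of the wild-type or the control ASO arrays. Bars give mean ± SD (n = 5 and 5, n = 4 and 4). Groups overlap in every panel, wild-type array 2 and ACAT2 ASO array 1 are high in the cytosolic set and low in the mitochondrial set, and transgenic array 5 lies near the wild-type mean in both sets.

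In livers of mice given the ACAT2 ASO the directions were the other way round, and a mitochondrial small-subunit gene, Mrps15, fell. Mrps15 encodes the mitochondrial relative of bacterial S15. It measured 7.26, 7.54, 7.38 and 7.44 in ACAT2 ASO livers, against 8.35, 8.13, 8.05 and 7.86 in control ASO livers. All ACAT2 ASO arrays lay below all control ASO arrays, and the change was -0.69 ± 0.086 (SE; limma, adjusted p = 0.000571), or 0.62-fold. Mrps15 was the only called member of the mitochondrial set (0 higher and 1 lower of 73), where 0.597% of all genes were called, 0.181% higher and 0.415% lower. In the transgenic model the same probe set measured 8.34, 8.32, 8.30, 8.22 and 8.21 in transgenic livers, against 8.22, 8.14, 8.23, 8.36 and 8.09 in wild-type livers, and its change was 0.073.

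Other probe sets for Mrps15 gave unequal values. A second probe set at a mean signal of 7.88 fell by 0.51 in ACAT2 ASO livers (limma on every probe set, adjusted p = 0.000533). Another, at a mean signal of 5.11, had a change of 0.084 that did not pass the test. Mrps15 was called with each of the 18 arrays left out in turn, with changes of -0.77 to -0.61. It was not called when the ASO arrays were fitted alone (limma, adjusted p = 0.0717).

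Over the mitochondrial set in the ASO model, 49 of 73 changes lay below 0 (67.1%) and the median was -0.047, against 50.3% and -0.00056 over all genes. At an unadjusted p under 0.05 there were 2 members higher (2.74%) and 13 lower (17.8%), where 5.68% and 7.63% of all genes were. Of other genes of like signal to this set, described below, 5.65% were higher and 12.7% lower. Groups stood apart for 7 members in the lower direction, Mrpl10, Mrpl17, Mrpl23, Mrpl48, Mrpl58, Mrps15 and Mrps35, or 9.59%, against 4.67% of all genes. They stood apart in the higher direction for Mrpl20, Mrpl28 and Mrps23, or 4.11%, against 4.39% of all genes. For the other genes of like signal these shares were 5.65% lower and 3.2% higher. Large-subunit members had a median of -0.041 (31 of 46 below 0) and small-subunit members a median of -0.047 (18 of 27 below 0).

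Mrpl17, a large-subunit protein of bacterial type, measured 9.06, 9.15, 8.98 and 9.02 in ACAT2 ASO livers, against 9.22, 9.29, 9.30 and 9.20 in control ASO livers. The groups did not overlap, and the change was -0.20 ± 0.046 (SE; limma, adjusted p = 0.0574). A second probe set for Mrpl17, at a mean signal of 5.10, had the other sign, with a change of 0.071. Without ACAT2 ASO array 2 this member was called (limma, adjusted p = 0.0233), and the count of called mitochondrial members was 4 against 1 with all arrays. Mrps23, a small-subunit protein of mitochondrial ribosomes only, went the other way. It measured 6.73, 6.60, 6.71 and 6.90 in ACAT2 ASO livers, against 6.25, 6.46, 6.50 and 6.41 in control ASO livers. Its change was 0.33 ± 0.084 (SE; limma, adjusted p = 0.0819), and its other probe sets had changes of 0.15 and 0.19. Mrpl48, a large-subunit protein, had a change of -0.22, and Mrps6, the relative of bacterial S6, had a change of -0.32. Without control ASO array 4, a library that stood apart, Mrps6 was called (-0.44; limma, adjusted p = 0.029) and the mitochondrial count was 2.

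Mrpl3, a large-subunit protein near the peptidyl transferase centre, measured 6.99, 7.35, 7.03 and 7.09 in ACAT2 ASO livers, against 7.33, 7.30, 7.35 and 7.52 in control ASO livers. ACAT2 ASO array 2 overlapped the control range, and the change was -0.26 ± 0.079 (SE; limma, adjusted p = 0.147). A second probe set for Mrpl3 fell by 0.32 in ACAT2 ASO livers (limma on every probe set, adjusted p = 0.0329). Mrps16, the relative of bacterial S16, measured 8.94, 9.40, 9.11 and 9.14 in ACAT2 ASO livers, against 9.36, 9.38, 9.22 and 9.30 in control ASO livers. Array 2 was again the highest of the ACAT2 ASO group, and the change of Mrps16 was -0.17. Mrpl10 measured 7.44, 7.37, 7.44 and 7.49 in ACAT2 ASO livers, against 7.57, 7.52, 7.53 and 7.496 in control ASO livers. Its partner Mrpl12 measured 9.75, 9.97, 10.01 and 9.96 in ACAT2 ASO livers, against 9.996, 10.01, 10.05 and 9.99 in control ASO livers. The stalk members had changes of -0.094 and -0.090, with no overlap for Mrpl10. Mrps12, with 8.84, 8.93, 8.79 and 8.73 in ACAT2 ASO livers, against 8.86, 8.92, 8.89 and 8.83 in control ASO livers, had a change of -0.052.

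Cytosolic members in the ASO model had small changes, 45 of 64 of them above 0 (70.3%) with a median of 0.023, or 1.59%, against 49.7% of changes above 0 over all genes. None was called (0 of 64 by limma), where 0.597% of all genes were. At an unadjusted p under 0.05 there were 3 higher (4.69%) and 1 lower (1.56%), both shares below those of all genes, 5.68% and 7.63%. The large subunit had 29 of 41 changes above 0 and the small subunit 16 of 23. Rpl6, a large-subunit protein, measured 11.51, 11.43, 11.47 and 11.49 in ACAT2 ASO livers, against 11.25, 11.38, 11.42 and 11.37 in control ASO livers. All its ACAT2 ASO values exceeded the control values, and the change was 0.12 ± 0.048 (SE; limma, adjusted p = 0.304). Rpl7, also of the large subunit, measured 11.54, 11.51, 11.65 and 11.61 in ACAT2 ASO livers, against 11.34, 11.55, 11.51 and 11.43 in control ASO livers, a change of 0.12 with overlap. Rplp1 had the opposite sign, with 11.88, 11.91, 11.76 and 11.83 in ACAT2 ASO livers, against 11.93, 11.94, 11.89 and 12.05 in control ASO livers. The change of Rplp1 was -0.11 ± 0.047 (SE; limma, adjusted p = 0.326). Groups stood apart for Rpl6 and Rps13 in the higher direction, or 3.12%, against 4.39% of all genes, a share no greater than the background.

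The remaining cytosolic members picked for their role had overlapping groups in the ASO model. Rps6 measured 12.50, 12.43, 12.47 and 12.43 in ACAT2 ASO livers, against 12.33, 12.53, 12.49 and 12.36 in control ASO livers, a change of 0.031. Rplp0 measured 11.80, 11.64, 11.66 and 11.74 in ACAT2 ASO livers, against 11.69, 11.69, 11.71 and 11.78 in control ASO livers, a change of -0.0068. Neither the S6 kinase substrate nor the stalk anchor had a change that kept its sign under each alternative. Rpl41 measured 11.81, 11.85, 11.74 and 11.70 in ACAT2 ASO livers, against 11.82, 11.80, 11.79 and 11.86 in control ASO livers, a change of -0.044. Rps4x measured 12.03, 11.998, 11.97 and 11.97 in ACAT2 ASO livers, against 11.87, 11.98, 11.95 and 11.97 in control ASO livers, a change of 0.047. Control ASO array 1 was the lowest of its group for Rps4x, as it was for Rps6, Rpl6 and Rpl7. Rpl13a measured 11.66, 11.53, 11.69 and 11.54 in ACAT2 ASO livers, against 11.32, 11.55, 11.59 and 11.45 in control ASO livers, a change of 0.13 (limma, adjusted p = 0.382).

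Set means in the ASO model overlapped between groups and leaned on single arrays. The cytosolic mean was 11.29 ± 0.024 in ACAT2 ASO livers and 11.27 ± 0.044 in control ASO livers (SD, n = 4 each). The mitochondrial mean was 8.23 ± 0.050 in ACAT2 ASO livers and 8.29 ± 0.024 in control ASO livers (SD, n = 4 each). ACAT2 ASO array 1 had the highest cytosolic mean, 11.33, and the lowest mitochondrial mean, 8.17. The distance between the cytosolic and the mitochondrial median was 0.070, and it was 0.035 without ACAT2 ASO array 1, 0.10 without ACAT2 ASO array 2 and 0.044 without control ASO array 1. Without ACAT2 ASO array 1 the mitochondrial median was -0.018. The cytosolic median of 0.023 was 0.0088 without control ASO array 1, 0.015 without control ASO array 4, and between 0.035 and 0.036 without ACAT2 ASO array 2, control ASO array 2 or control ASO array 3. Leaving out the 3 arrays that stood apart gave medians of 0.0083 for the cytosolic set and -0.034 for the mitochondrial set.

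Set side by side, the models had opposite signs for most members. Lower values in transgenic livers together with higher values in ACAT2 ASO livers were found for 41 of 64 cytosolic members (64.1%), where 26.3% of all genes had these signs. The reverse was found for 40 of 73 mitochondrial members (54.8%), where 29.2% of all genes had it. These joint shares follow largely from the share of each sign in each model given above, so they add little to those shares. The models share no arrays, but they differ in strain as well as in treatment, which cannot be told apart.

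**Figure D3:**
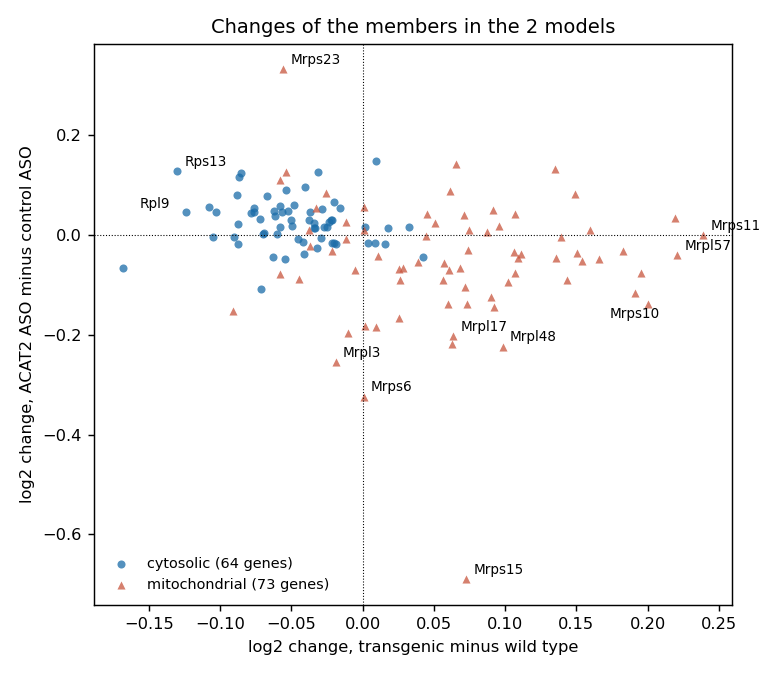
Each point is a member, with its log2 change in transgenic minus wild-type livers on the horizontal axis and in ACAT2 ASO minus control ASO livers on the vertical axis. Circles are the 64 cytosolic and triangles the 73 mitochondrial members. Cytosolic points gather in the upper left, mitochondrial points spread toward the lower right, and Mrps15 lies far below the rest.

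The difference between the models was itself tested, as the effect in transgenic livers minus the effect of the ACAT2 ASO. For 3 mitochondrial members this difference was called, all of them higher, where 1.07% of all genes were called and 0.766% were called higher. Mrps15 had a difference of 0.76 ± 0.12 (SE; limma, adjusted p = 0.00441), called with each array left out in turn and under 7 of 8 other alternatives. Mrps10 had a difference of 0.31 ± 0.067 (SE; limma, adjusted p = 0.0371), made of the 0.19 above and a change of -0.12 in the ASO model. Mrps10 measured 8.34, 8.50, 8.35 and 8.33 in ACAT2 ASO livers, against 8.45, 8.56, 8.48 and 8.48 in control ASO livers, with ACAT2 ASO array 2 inside the control range. Mrpl17 had a difference of 0.27 ± 0.062 (SE; limma, adjusted p = 0.0489), and in the transgenic model it measured 9.57, 9.55, 9.52, 9.47 and 9.49 in transgenic livers, against 9.41, 9.39, 9.499, 9.48 and 9.51 in wild-type livers. A second probe set for Mrpl17, at a mean signal of 5.10, had a difference of -0.084. The calls of Mrps10 and Mrpl17 were lost with 14 and 16 of the 18 arrays left out in turn.

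No cytosolic member was called for this difference (0 of 64 by limma), although 57 of 64 differences lay below 0 and the median was -0.073. Over all genes 52% of differences lay above 0 and the median was 0.0081. At an unadjusted p under 0.05 there were 0 cytosolic members higher and 8 lower, where 8.69% and 6.66% of all genes were. Rps13 had the smallest p, with a difference of -0.26 ± 0.076 (SE; limma, adjusted p = 0.105). Rps13 measured 10.97, 10.88, 10.81 and 10.85 in ACAT2 ASO livers, against 10.68, 10.77, 10.77 and 10.77 in control ASO livers, so that here its groups stood apart in the higher direction. Rps13 and Mrps15 are the cytosolic and mitochondrial relatives of the same bacterial protein, S15, and their differences had opposite signs. Rpl6, Rpl7 and Rpl9 followed by p, with differences of -0.20, -0.21 and -0.17. Over the mitochondrial set 60 of 73 differences lay above 0, with a median of 0.13. At an unadjusted p under 0.05 there were 19 higher (26%) and 1 lower. Of other genes of like signal to that set, described below, 14.5% were higher and 5.41% lower.

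**Figure D4:**
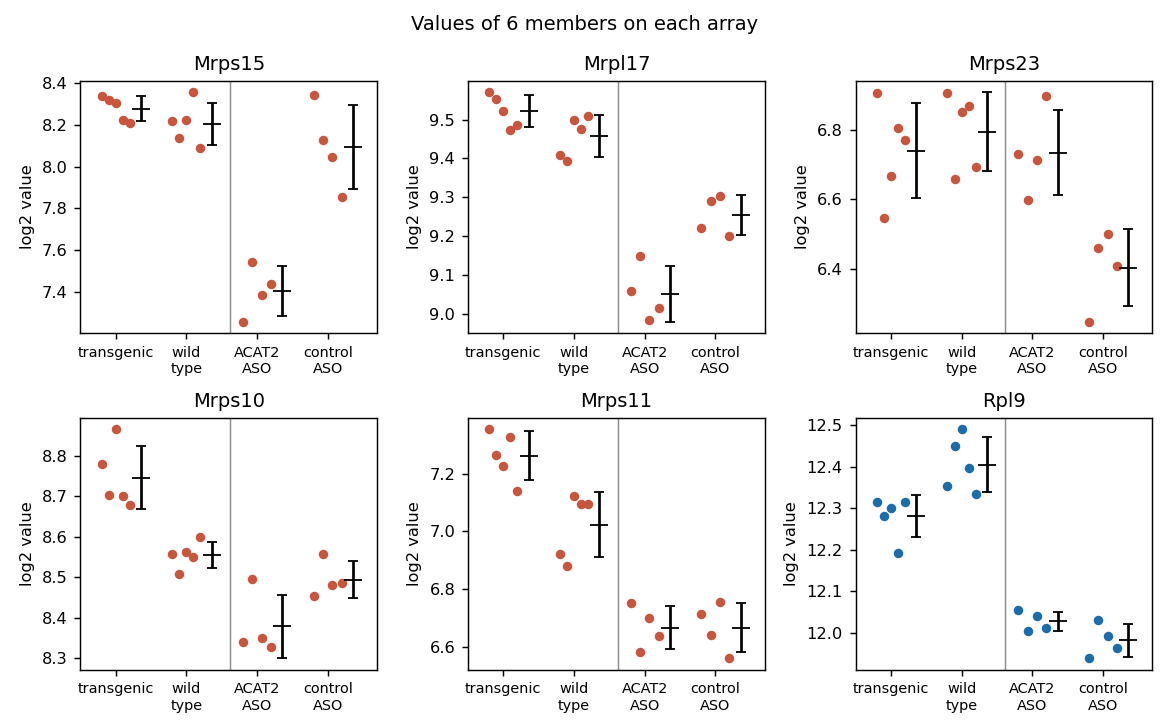
Each point is the log2 signal of a member on an array, with mean ± SD of the group beside it (n = 5, 5, 4 and 4). A line separates the models, between which levels are not compared. Mrps15, Mrpl17 and Mrps23 stand apart in the ASO model, Mrps10, Mrps11 and Rpl9 in the transgenic model.

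Members of a set deviated together from array to array within groups. Across the 18 arrays the mean pairwise correlation of deviations from the group means was 0.44 within the cytosolic set and 0.23 within the mitochondrial set. Between the sets it was -0.18, and over all pairs of genes it was 0.0024. The points share arrays, RNA preparations and scaling, and no test was made.

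The sets differ in signal, so genes of like signal were described beside them. Of 127 other genes with a mean signal in the middle range of the cytosolic set, 57.5% had a change above 0 in transgenic livers, with a median of 0.012, and in the ASO model their median was -0.015. Of 1627 other genes in the middle range of the mitochondrial set, 58.8% had a change above 0 in transgenic livers, with a median of 0.025, and in the ASO model their median was -0.018. The genes near the mitochondrial set in signal thus had the direction of that set in both models, at a smaller size, while those near the cytosolic set had the other sign in both models. The 3′ to 5′ log2 difference of the actin control probe sets, a sign of RNA integrity, was 1.02 ± 0.17 in transgenic livers and 0.91 ± 0.085 in wild-type livers (SD, n = 5 each). It was 1.05 ± 0.11 in ACAT2 ASO livers and 1.05 ± 0.048 in control ASO livers (SD, n = 4 each), and its part in these results was not tested.

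Many members have more than 1 probe set (69 of 138), and their other probe sets gave a partial check. At or above the low level, the change in transgenic livers had the sign of the brightest probe set for 38 of 46 other cytosolic probe sets, with a median of -0.068. For the mitochondrial set it had that sign for only 18 of 37, with a median of 0.030. In the ASO model the counts were 28 of 46 for the cytosolic set and 25 of 37 for the mitochondrial set, with medians of 0.016 and -0.0099. Cytosolic ribosomal proteins have many processed pseudogenes, and 18 cytosolic members were represented by probe sets whose name marks probes shared with other sequences (x_at), so their signals may include other transcripts. Those 18 had a median of -0.044 in the transgenic model, and the 41 members whose probe set name marks no sharing had -0.052.

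**Figure D5:**
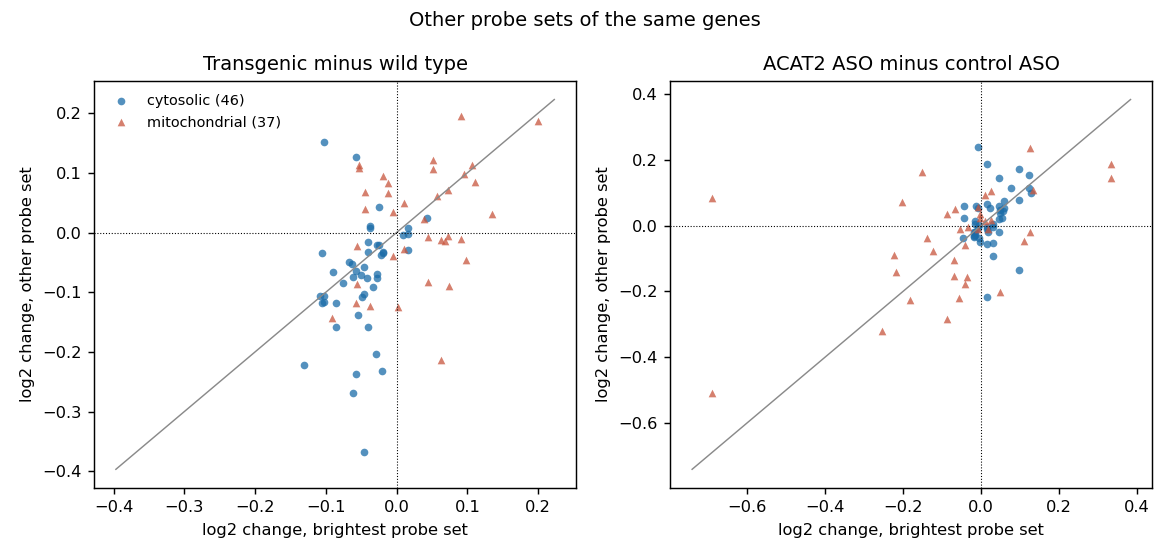
Each point is a further probe set of a member at or above the low level, with its log2 change on the vertical axis and that of the gene's brightest probe set on the horizontal axis, for 46 cytosolic and 37 mitochondrial probe sets. The line marks equal values. Cytosolic points of the transgenic model sit mostly in the lower left, and mitochondrial points scatter on both sides of 0. The point at -0.69 and -0.51 in the ASO panel is a second probe set of Mrps15.

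Changes of members at the ends of the signal range differed in size. In the cytosolic set Rps29, Rps6 and Rpl39 had the highest signals and changes of -0.022, -0.051 and -0.049 in transgenic livers. Rps15a, Rpl14 and Rps12 had the lowest, with changes of 0.0094, -0.088 and -0.11, and Rps15a lay below the low level. In ACAT2 ASO livers the change of Rps15a, 0.15, was the highest of the cytosolic set. In the mitochondrial set Mrpl39, Mrpl30 and Mrpl27 had the highest signals, with changes of 0.090, 0.068 and 0.20 in transgenic livers and -0.12, -0.067 and -0.14 in ACAT2 ASO livers. Mrpl47, below the low level, Mrps27 and Mrpl37 had the lowest, with changes of 0.071, -0.037 and -0.058 in transgenic livers. The order of signals describes the probe sets and not the amounts of these mRNAs.

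The member in neither set, Rps19bp1, whose product binds Rps19 and the deacetylase Sirt1, measured 7.64, 7.68, 7.65, 7.52 and 7.58 in transgenic livers, against 7.46, 7.37, 7.44, 7.37 and 7.29 in wild-type livers. The groups stood apart by 0.23 ± 0.067 (SE; limma, adjusted p = 0.191). In the ASO model it measured 6.67, 6.58, 6.79 and 6.76 in ACAT2 ASO livers, against 6.64, 6.71, 6.89 and 6.46 in control ASO livers, with overlap.

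Other genes of translation were described from lists of genes by function. No gene of these lists was called in the transgenic comparison (limma, 0 genes), where 0.228% of all genes were. In the ASO model Lars2, the mitochondrial leucyl-tRNA synthetase, fell by 0.43 ± 0.063 (SE; limma, adjusted p = 0.00284). Among 26 mitochondrial translation factors and synthetases it was the only gene called (0 higher and 1 lower), where 0.415% of all genes were called lower. Of the 26 changes, 17 lay below 0, against 50.3% over all genes, with a median of -0.058. These genes had, at an unadjusted p under 0.05, 3 higher and 1 lower in transgenic livers, where 6.36% and 4.52% of all genes were. In ACAT2 ASO livers they had 0 higher and 4 lower, where 5.68% and 7.63% of all genes were. The difference of Lars2 between the models was 0.57 (limma, adjusted p = 0.00389). That of Iars2, the mitochondrial isoleucyl-tRNA synthetase, was 0.43 (limma, adjusted p = 0.0489), close to the threshold. Both were called higher, where 0.766% of all genes were. In transgenic livers the same 26 genes had a median of -0.0078, with 12 changes above 0. Another list of 25 genes mixed assembly factors of the mitochondrial ribosome with genes of mitochondrial transcription, such as Polrmt, and nuclear regulators, such as Esrra. None was called in either model (0 of 25), with medians of -0.011 in transgenic livers and -0.035 in ACAT2 ASO livers. With an unadjusted p under 0.05 there were 1 higher and 0 lower in transgenic livers and 2 higher and 1 lower in ACAT2 ASO livers. The shares of all genes are those just given.

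On the cytosolic side, 21 translation factors and related genes known for TOP mRNAs had a median of -0.041 in transgenic livers, with 12 changes below 0, and of 0.026 in ACAT2 ASO livers, with 14 above 0, and none was called (0 of 21 by limma). At an unadjusted p under 0.05 there were 0 higher and 4 lower in transgenic livers, where 6.36% and 4.52% of all genes were. In ACAT2 ASO livers 3 were higher and 1 lower, where 5.68% and 7.63% of all genes were. The 53 assembly factors of the cytosolic ribosome had medians of 0.0088 in transgenic livers and 0.028 in ACAT2 ASO livers, with 29 and 30 changes above 0. With an unadjusted p under 0.05 there were 4 higher and 2 lower in transgenic livers and 9 higher and 4 lower in ACAT2 ASO livers, where 5.68% of all genes were higher and 7.63% lower. The only one called, in the ASO model where 0.597% of all genes were, was Riok2, a kinase of late small-subunit assembly, which fell by 0.52 ± 0.11 (SE; limma, adjusted p = 0.0336), against the direction of most of the list. The 27 initiation and mTOR pathway genes had medians of -0.00090 in transgenic livers and 0.012 in ACAT2 ASO livers. At an unadjusted p under 0.05 they had 3 higher and 2 lower in ACAT2 ASO livers, where 5.68% and 7.63% of all genes were. In transgenic livers they had 5 higher and 0 lower, where 6.36% and 4.52% of all genes were. By p the 5 were Mtor, the kinase itself, Rheb, Rptor, a subunit of its complex 1, Eif2b4 and Eif4e, which lay below the low level. Their changes of 0.20, 0.13, 0.12, 0.16 and 0.17 did not pass the test. The only one called, in the ASO model, was Eif2s3x, the gamma subunit of the factor that brings initiator tRNA. It rose by 0.26 ± 0.052 in ACAT2 ASO livers (SE; limma, adjusted p = 0.0277), where 0.181% of all genes were called higher. Its difference between the models, -0.35, was called as well (limma, adjusted p = 0.0268), where 0.304% of all genes were called lower. Of 16 genes of ribosomal RNA transcription 0 were called (1 higher at an unadjusted p under 0.05 in each model), with medians of -0.030 in transgenic livers and 0.021 in ACAT2 ASO livers. Proteins of the cytosolic ribosome whose names fall outside the rule, Rpsa and Fau, had changes of -0.089 and -0.060 in transgenic livers and of 0.021 and -0.10 in ACAT2 ASO livers, so that Fau had the other sign from most of the cytosolic set in the ASO model. Such proteins of the mitochondrial ribosome, Dap3, Ptcd3, Chchd1 and Gadd45gip1, had changes of -0.00081, 0.061, 0.071 and 0.16 in transgenic livers. In ACAT2 ASO livers their changes were -0.17, -0.10, 0.028 and -0.090, and none of these 6 genes was called in either model.

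All 11 Kupffer cell markers measured had changes above 0 in ACAT2 ASO livers, against 49.7% of all genes, with a median of 0.41. None was called (0 of 11 by limma), and 1 was higher at an unadjusted p under 0.05, where 5.68% of all genes were. Their summed level had a log2 range of 11.75 to 13.30 in ACAT2 ASO livers and 11.74 to 12.83 in control ASO livers, and of 12.71 to 13.28 in transgenic livers and 12.36 to 13.66 in wild-type livers. Proliferation markers, 11 of them measured, had a median change of 0.0078 in transgenic livers and of -0.067 in ACAT2 ASO livers. Fewer cells of a type and less RNA per cell cannot be told apart in whole liver, and the part of these cells in the ribosomal protein values was not tested.

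Promoters were searched for motifs that are known for genes of ribosomes and mitochondria, in windows of 300 bases, 250 before and 50 after the annotated start, with 50 of 64 cytosolic and 65 of 73 mitochondrial members matched. A TOP tract at the annotated start, a C and 4 pyrimidines, was found for 11 cytosolic members (22%) and for 0 mitochondrial members, against 3.01% of 27025 genes. Tracts that begin at another base were not counted in either set. CCGGAAG, the core bound by GABP and other ETS factors, was found on either strand for 44% of cytosolic and 35.4% of mitochondrial members, against 9.93% of all genes. AAGATGG, a YY1 motif, was found for 16% and 20%, against 7.28% of all genes. The palindromic motif of NRF1, a factor of nuclear genes for mitochondria, was found for 2% and 4.62%, against 1.07% of all genes. By contrast TATAAA was found for 12% and 7.69%, against 15.7% of all genes, and CCAAT for 32% and 41.5%, against 41.1%.

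Longer stretches of 150 bases, 130 before and 20 after the start, show a TOP promoter, the promoter of a mitochondrial member whose groups stood apart in the transgenic model, and that of the member that fell in the ASO model. Capitals mark CCGGAAG and, at the start of Rps6, its TOP tract.
Rps6, chr4:86857348-86857497, minus strand: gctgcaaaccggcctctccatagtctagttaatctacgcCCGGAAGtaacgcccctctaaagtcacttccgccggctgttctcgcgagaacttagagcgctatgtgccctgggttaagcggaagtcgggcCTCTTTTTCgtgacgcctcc
Mrpl27, chr11:94653661-94653810, plus strand: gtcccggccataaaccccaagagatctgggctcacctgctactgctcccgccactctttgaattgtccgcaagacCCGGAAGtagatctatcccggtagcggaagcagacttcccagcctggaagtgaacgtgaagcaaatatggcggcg
Mrps15, chr4:126046798-126046947, plus strand: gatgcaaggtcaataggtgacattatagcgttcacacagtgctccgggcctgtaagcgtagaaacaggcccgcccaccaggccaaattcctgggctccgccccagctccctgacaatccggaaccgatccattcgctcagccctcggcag
The motif begins 91 bases before the start in Rps6 and 55 bases before it in Mrpl27, and none of the motifs searched lies in the stretch of Mrps15. Cytosolic members with a TOP tract at the annotated start had 6 of 11 changes below 0 in transgenic livers (median -0.029), and those without it had 36 of 39 (median -0.054). In ACAT2 ASO livers their medians were 0.0027 and 0.029. Members without a tract at the annotated start may have one that begins at another base, so this split does not separate TOP mRNAs from others. Mitochondrial members with CCGGAAG had a median of 0.092 in transgenic livers and those without it 0.064, and in ACAT2 ASO livers -0.047 and -0.036.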

How the data were processed

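RNA of 18 liver samples was measured on Affymetrix MG-430 PM arrays from 250 ng of RNA amplified from the 3′ end, per the labels' protocols. The log2 values were deposited by the authors as probe set summaries made with RMA, according to the submitters' processing notes. The version of the software, the definition of the probe sets and the extent of the RMA run were not stated. Arrays give no read depth, so their number limits the precision. Of 45141 probe sets, 28898 with a single symbol in the platform annotation were kept (551 had several, 15588 none and 104 were controls), and 17097 genes were each represented by the probe set of highest mean.

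A model with a mean for each of the 4 groups was fitted to all 18 arrays with lmFit and eBayes (limma 3.58.1, R 4.3.3), and p-values were adjusted by Benjamini-Hochberg over all genes. The sets were described by counts and medians, with no set test. The fit was tested on simulated data. The members, lists and tests were chosen with earlier results of these data known. Named members are those called, those with the smallest p in each set and contrast, those at the ends of the signal range, and members picked for their role, of which only some are given. Promoters are from RefSeq (GRCm38.p6). Alternatives were probe set choice, a filter on low values, array scaling, separate fits, trended and robust variance, array weights, a replicate block, a threshold of 0.01, and leaving out each array; leaving out the 3 arrays that stood apart was added after the data were seen. Figures were drawn with matplotlib 3.10.9.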

Additional observations from a re-analysis of the deposited data

Results flagged for a closer look

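Single arrays lay far from the rest of their group in 7 of 108 groups examined, over 24 member genes and the set means, where chance gives about 1 in 20. ACAT2 ASO array 1 had a cytosolic set mean of 11.33, and the nearest array of its group had 11.28. Within their groups, transgenic array 4 had the lowest Rpl9 value, 12.19. Control ASO array 1 had the lowest Rps13 value, 10.68, and the lowest Mrps34 value, 9.24. ACAT2 ASO array 2 had the lowest Rps15a value, 4.02, which is below the low level, and the highest Mrps10 value, 8.50. Wild-type array 5 had the highest Mrpl57 value of its group, 9.56. The effect in transgenic livers minus the effect of the ACAT2 ASO differed from 0 by test for Mrps15 (0.76), Mrps10 (0.31) and Mrpl17 (0.27).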

How the results depend on the processing

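All set medians, and the distance between them, kept their sign in both models under every alternative run, and the count of called cytosolic members was 0 throughout. The mitochondrial count in the ASO model, 1, was 2 with a gene's probe sets averaged or arrays centred on their medians, 3 over every probe set, 5 with array weights and 0 with the ASO arrays fitted alone; with each array left out it was 1 to 4. In the transgenic model it was 0 to 2 with each array left out, the 2 without wild-type array 5. The count for the difference between the models, 3, was 1 after quantile normalization, with trended and robust variance, at a threshold of 0.01 or without the 3 arrays that stood apart, and 1 to 5 with each array left out, the 5 without ACAT2 ASO array 2. With the replicate block it was 0, and the difference of Mrps15 was no longer called (limma, adjusted p = 0.0837). Whether replicate numbers pair the samples is not known. Deviations of same-numbered arrays from their group means correlated at -0.48 to 0.17 in the transgenic model and -0.48 to 0.47 in the ASO model. Only ACAT2 ASO array 3 correlated best with the reference array of its own number (0.47). With 4 or 5 arrays per group these values cannot settle the question. Signs turned for uncalled genes. Rpl41 had -0.035 in transgenic livers with probe sets averaged. In the ASO model Rps6 had -0.0077 with probe sets averaged, -0.00071 with array weights, -0.0071 without the 3 arrays and -0.00069 to 0.066 with each array left out. Rplp0 had 0.00083 after quantile normalization, 0.0022 with array weights and -0.036 to 0.018 with each array left out. Rps19bp1 had -0.035 without the 3 arrays and -0.044 to 0.10 with each array left out. The causes were not tested. Rps15a and Mrpl47 lay below the low level, where signal limits what a change can show.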
